A study of Mus musculus with 9 samples.

Results

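Stat2, Irf1, Gbp2 and Psmb8 are 4 mouse genes of the interferon response, and their log ratios between castrated and sham-operated mice were followed on each of 9 dual-channel arrays. They were chosen by name: every feature whose platform annotation gives 1 of these symbols alone was taken, which yielded 6 of the 11552 features on the array. Stat2 and Irf1 have 2 features each, and Gbp2 and Psmb8 have 1 each. The second Irf1 feature (number 4319) has no value on any array, so 5 features were tested. Gbp2 lacks a value on young marrow replicate 1, and the other 4 have all 9 values.

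All mice were C57BL/6, and each array set RNA of a mouse castrated at 7 weeks against RNA of a matched sham-operated mouse. The arrays fall into 3 groups of 3: bone of young mice (17 weeks), marrow of young mice (17 weeks), and specimens of old mice (59 weeks) that are labelled bone marrow. The design text mentions the removal of marrow from bone for the young mice only, so the old samples may hold bone as well. The replicates are different mouse pairs according to that text. The castrated mouse was labelled with Cy5 on 6 arrays, called unswapped here, and with Cy3 on 3 arrays, called swapped. The swapped arrays are young bone replicate 3, young marrow replicate 2 and old replicate 2, so that each group holds 1 swapped array.

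Interferons are cytokines released by infected or activated cells. They bind receptors on the cell surface, whose Janus kinases phosphorylate STAT proteins, and these enter the nucleus and switch on a shared set of genes. Stat2 is a subunit of ISGF3, the complex that carries the signal of type I and type III interferons to the interferon-stimulated response element (ISRE). Irf1 encodes a transcription factor that is itself induced by interferon gamma and binds related elements. Gbp2, an interferon-induced GTPase, and Psmb8, the inducible catalytic subunit of the immunoproteasome, which cuts proteins into peptides for presentation on MHC class I, are target genes of the pathway. In marrow, interferons are known to act on blood stem cells and on the formation of bone-resorbing osteoclasts.

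The promoters of the 4 genes are shown because STAT and IRF proteins are known to bind short elements of this kind in the promoters of their targets. Each window runs from 250 bases before to 50 bases after the RefSeq transcription start, on the plus strand of GRCm38.p6. Capitals mark a match to the core of the ISRE (TTTC, 2 bases of any kind and TTTC, or GAAA, 2 bases and GAAA on the other strand) or to the gamma-activated site that STAT dimers bind (GAS, TTCNNNGAA, which reads the same on both strands).
Stat2, chr10:128270248-128270547: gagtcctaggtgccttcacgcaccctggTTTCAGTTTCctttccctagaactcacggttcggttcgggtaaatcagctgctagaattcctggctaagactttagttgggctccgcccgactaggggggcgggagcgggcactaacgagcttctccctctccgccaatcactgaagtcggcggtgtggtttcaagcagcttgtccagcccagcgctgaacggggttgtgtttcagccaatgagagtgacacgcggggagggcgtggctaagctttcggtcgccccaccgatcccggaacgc
Irf1, chr11:53769764-53770063: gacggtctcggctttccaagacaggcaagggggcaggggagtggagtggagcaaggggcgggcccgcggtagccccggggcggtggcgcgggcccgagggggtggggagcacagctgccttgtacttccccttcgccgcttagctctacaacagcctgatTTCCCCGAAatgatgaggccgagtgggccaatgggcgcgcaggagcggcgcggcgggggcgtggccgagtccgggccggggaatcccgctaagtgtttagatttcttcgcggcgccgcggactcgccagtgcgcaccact
Gbp2, chr3:142620413-142620712: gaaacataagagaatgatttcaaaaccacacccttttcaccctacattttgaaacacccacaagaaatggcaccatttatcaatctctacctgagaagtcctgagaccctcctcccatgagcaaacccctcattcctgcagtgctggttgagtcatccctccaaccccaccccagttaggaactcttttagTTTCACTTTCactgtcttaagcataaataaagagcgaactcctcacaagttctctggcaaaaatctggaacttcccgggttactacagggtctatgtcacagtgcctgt
Psmb8, chr17:34197945-34198244: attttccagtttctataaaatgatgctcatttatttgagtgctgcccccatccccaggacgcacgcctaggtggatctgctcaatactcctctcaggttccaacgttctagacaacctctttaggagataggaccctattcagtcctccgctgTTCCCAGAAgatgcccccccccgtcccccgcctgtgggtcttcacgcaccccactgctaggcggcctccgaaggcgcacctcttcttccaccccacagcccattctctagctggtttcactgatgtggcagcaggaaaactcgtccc
The Stat2 window holds 1 ISRE core, 222 bases upstream of the start, and the Gbp2 window holds 1, 59 bases upstream. The Irf1 and Psmb8 windows hold 1 GAS match each, 90 and 97 bases upstream. A second listed Irf1 start, with the window chr11:53770223-53770522, has no match to either motif. Among all 32851 RefSeq promoter windows of this length, 3.44% hold the ISRE core and 8.3% hold the GAS, so these matches describe the sequence and are not evidence of binding. The genes themselves lie at chr10:128270498-128292853 (Stat2), chr11:53770014-53778374 (Irf1), chr3:142620663-142638008 (Gbp2) and chr17:34198195-34201454 (Psmb8).

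The deposited values are log ratios, read here as log2. Whether a ratio stands for castrated over sham, or for Cy5 over Cy3 whatever the sample, is not given in the sources used here. On the 6 unswapped arrays both come to the same sign. On the 3 swapped arrays they are opposite, and the fitted values of the members are given both ways: the castrated-over-sham reading keeps the deposited signs, and the channel reading turns the sign of the swapped arrays. The labels describe every array as castrated against sham, which makes the castrated-over-sham reading the likely one. Markers of B lymphocytes, 9 genes tested, had a median fitted ratio of 0.80, 0.91 and 0.90 in young bone, young marrow and old specimens under the castrated-over-sham reading, and of -0.02, 0.11 and -0.02 under the channel reading. As deposited, swapped young marrow replicate 2 correlated at 0.47 and 0.37 with the unswapped arrays of its group. For swapped old replicate 2 these correlations were 0.57 and 0.27, and for swapped young bone replicate 3 they were 0.11 and -0.20. The 2 unswapped young bone arrays correlated at 0.38 with each other. Young bone replicate 3 correlated most with swapped young marrow replicate 2 (0.40), and young bone replicate 2 with old replicates 2 and 1 (0.56 and 0.52). Old replicate 1 correlated at -0.31 with young marrow replicate 2 and at -0.21 with young marrow replicate 3, which is unswapped. Log ratios give no level of expression, so the labelled tissues could not be checked against their markers. The labels describe RNA extraction from crushed bone in the same words for all samples, marrow included. Arrays hold 8290 to 10995 values, with a mean within 0.0021 of 0 and an SD of 0.192 to 0.294 on 8 arrays. Old replicate 1 stood apart with an SD of 0.454. Intensities were not analysed here, so the precision of a ratio is judged from repeated features: 606 pairs of features of the same gene and accession that lie 192 numbers apart had a median absolute difference of 0.05 on the same array, and 95% of differences were at or below 0.21.

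In young bone all 5 member features had their highest ratio on replicate 3, the swapped array. Stat2 feature 2318 had deposited ratios of -0.04, -0.10 and 0.60 on young bone replicates 1, 2 and 3. The second Stat2 feature, 2510, which carries the same accession, had 0.05, -0.14 and 0.68. Both features were near 0 on the unswapped arrays and far above 0 on the swapped one. Irf1 feature 4127 had -0.08, -0.17 and 0.55. Gbp2 feature 5962 had -0.61, 0.04 and 0.43, so that its 2 unswapped arrays also lay far apart. Psmb8 feature 10643 had -0.10, -0.28 and 0.34. Of all features with a value on the 3 young bone arrays, 38.5% were highest on replicate 3, and for 17.2% of features with all 9 values that array was the highest of the 9. The 2 Stat2 features and Irf1 were highest there among the 9 arrays, whereas Psmb8 was highest on old replicate 3 and Gbp2 on old replicate 1.

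**Figure D1:**
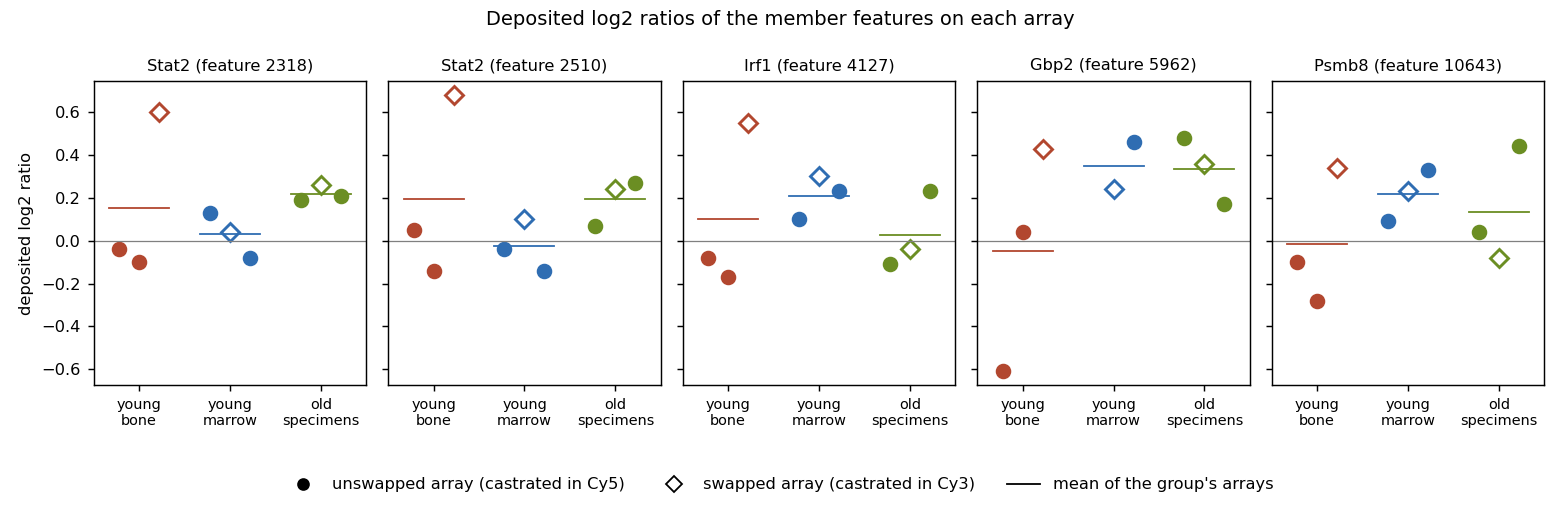
Deposited log2 ratio (vertical axis) of the 5 tested member features on the 9 arrays, by group; filled circles are unswapped arrays, open diamonds swapped arrays and lines the mean of a group. In young bone the swapped array lies above both unswapped arrays for every feature, from 0.34 for Psmb8 to 0.68 for Stat2 feature 2510.

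Set against the swapped array, the mean of the unswapped young bone arrays was lower by more than 0.5 for every member feature. The mean was -0.07 on the unswapped arrays, against 0.60 on the swapped array, for Stat2 feature 2318, a difference of -0.67. Irf1 differed by -0.68 in the same direction, Gbp2 by -0.72 and Psmb8 by -0.53, and the second Stat2 feature by -0.73. A difference of -0.5 or below, a cut set after these values were seen, was found for 7.3% of all features in young bone, and one of 0.5 or above for 7.53%. The spread of this difference over all features was wider in young bone (SD 0.350) than in young marrow (0.217) or old specimens (0.243).

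The same genes showed no such gap in the other groups. In young marrow the unswapped minus swapped difference was -0.02 and -0.19 for the Stat2 features, -0.14 for Irf1, 0.22 for Gbp2 and -0.02 for Psmb8. In old specimens it was -0.06 and -0.07 for Stat2, 0.10 for Irf1, -0.04 for Gbp2 and 0.32 for Psmb8. None of the 5 reached -0.5 in either group, where 1.02% (young marrow) and 1.87% (old specimens) of all features did. One swapped array stands for each group, so the layout and the mouse pair on that array cannot be told apart.

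**Figure D2:**
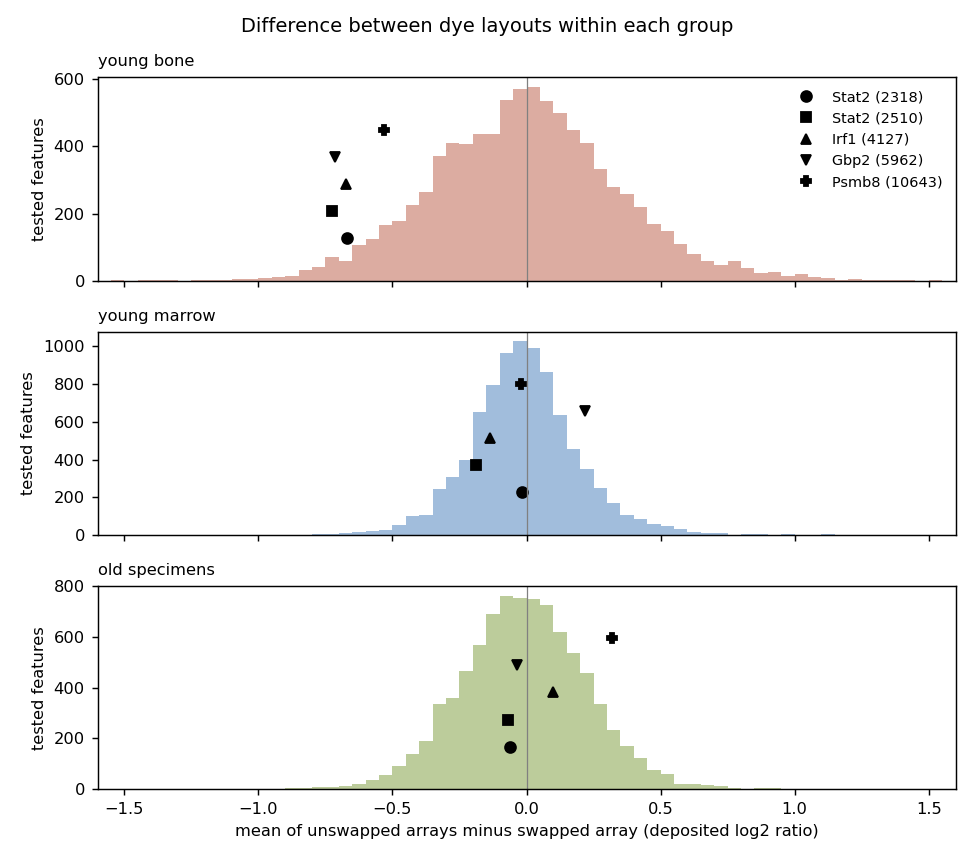
Mean of the unswapped arrays minus the swapped array (log2, horizontal axis) in each group; the histogram counts all features with values and the marks are the 5 member features, whose height has no meaning. The members lie between -0.73 and -0.53 in young bone and between -0.19 and 0.32 in the other groups.

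Under the castrated-over-sham reading, the young bone ratios averaged 0.15 ± 0.39 and 0.20 ± 0.43 for the Stat2 features, 0.10 ± 0.39 for Irf1, -0.05 ± 0.53 for Gbp2 and -0.01 ± 0.32 for Psmb8 (SD, n = 3 each). Every mean was smaller than the spread between the arrays. The limma fit, with a coefficient per group and a common term for the dye layout, gave Stat2 0.19 (SE 0.11) and 0.25 (SE 0.12) in young bone, with Benjamini-Hochberg adjusted p-values of 0.75 and 0.58 over the 8885 features tested. Irf1 was fitted at 0.14 (SE 0.13, adjusted p 0.92), and Gbp2 at -0.01 and Psmb8 at 0.00 had adjusted p-values of 1.0. None of the 5 features passed the threshold of 0.05 in young bone, where 0.259% of all features did. Without replicate 3 the fit gave -0.05 and 0.02 for Stat2, -0.12 for Irf1, -0.32 for Gbp2 and -0.27 for Psmb8, so that no value above 0.02 was left.

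Under the channel reading the young bone means were all below 0: -0.25 ± 0.31 and -0.26 ± 0.38 for Stat2, -0.27 ± 0.25 for Irf1, -0.33 ± 0.34 for Gbp2 and -0.24 ± 0.12 for Psmb8 (SD, n = 3 each). On this reading all 3 young bone arrays were below 0 for Stat2 feature 2318, Irf1 and Psmb8, while 16.3% of all features had 3 arrays below 0. The fitted values were -0.31 (SE 0.11) and -0.32 (SE 0.12) for Stat2, -0.32 (SE 0.11) for Irf1, -0.42 (SE 0.15) for Gbp2 and -0.28 (SE 0.11) for Psmb8. Their unadjusted limma p-values ran from 0.016 to 0.033. All 5 were thus below 0 at an unadjusted p under 0.05, as 4.31% of all features were. The genes were chosen with these young bone values known, so their shared sign is a description and carries no weight as a test. After adjustment the p-values ran from 0.68 to 0.71, and none passed. Under this reading 0 of the 8885 features passed in young bone, although 606 (6.82%) had an unadjusted p under 0.05. Without young bone replicate 3 the fitted values were -0.20 and -0.15 for Stat2, -0.25 for Irf1, -0.63 for Gbp2 and -0.34 for Psmb8.

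The 6 unswapped arrays give values that do not depend on the reading. On them young bone was fitted at -0.07 and -0.05 for Stat2, -0.13 for Irf1, -0.29 (SE 0.18) for Gbp2 and -0.19 for Psmb8, with adjusted p-values of 0.70 to 0.96. These values lie between 0 and the channel values for all 5 features. No member passed in any group, where 0.0113% (young bone), 0.0339% (young marrow) and 0.147% (old specimens) of all features did, nor on average (0.972%).

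In young marrow Irf1 and both target genes had ratios above 0. Gbp2 had no value on replicate 1 and 0.24 and 0.46 on replicates 2 and 3, a mean of 0.35 ± 0.16 (SD, n = 2). Psmb8 had 0.09, 0.23 and 0.33, a mean of 0.22 ± 0.12, and Irf1 had 0.10, 0.30 and 0.23, a mean of 0.21 ± 0.10 (SD, n = 3 each). All 3 were above 0 on every array with a value, while Stat2 lay around 0 with 0.13, 0.04 and -0.08 for feature 2318 and -0.04, 0.10 and -0.14 for feature 2510. The fit gave 0.35 (SE 0.20, adjusted p 0.56) for Gbp2, 0.25 (adjusted p 0.52) for Irf1 and 0.23 (adjusted p 0.60) for Psmb8 under the castrated-over-sham reading, none past the threshold that 0.844% of all features passed. Under the channel reading the same fits were 0.11, -0.04 and 0.02, since the swapped array then counts against the other arrays. Gbp2 rests on 2 arrays here, and with the deposited signs it was fitted at 0.65 without young marrow replicate 2 and at 0.05 without replicate 3, each resting on the remaining array and the dye layout term.

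In old specimens both Stat2 features were above 0 on all 3 arrays with the deposited signs. Feature 2318 had 0.19, 0.26 and 0.21 on the 3 arrays, a mean of 0.22 ± 0.04, and feature 2510 had 0.07, 0.24 and 0.27, a mean of 0.19 ± 0.11 (SD, n = 3 each). With the swapped array turned, the SDs were 0.27 and 0.26. Gbp2 was also above 0 on all 3 arrays, at 0.48, 0.36 and 0.17. Irf1 at -0.11, -0.04 and 0.23 and Psmb8 at 0.04, -0.08 and 0.44 fell on both sides of 0. With the deposited signs the fit gave 0.26 and 0.25 for Stat2 (adjusted p 0.27 and 0.28) and 0.37 for Gbp2 (adjusted p 0.27), and none passed, against 0.732% of all features. The channel reading brought these to -0.01, -0.03 and 0.01.

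**Figure D3:**
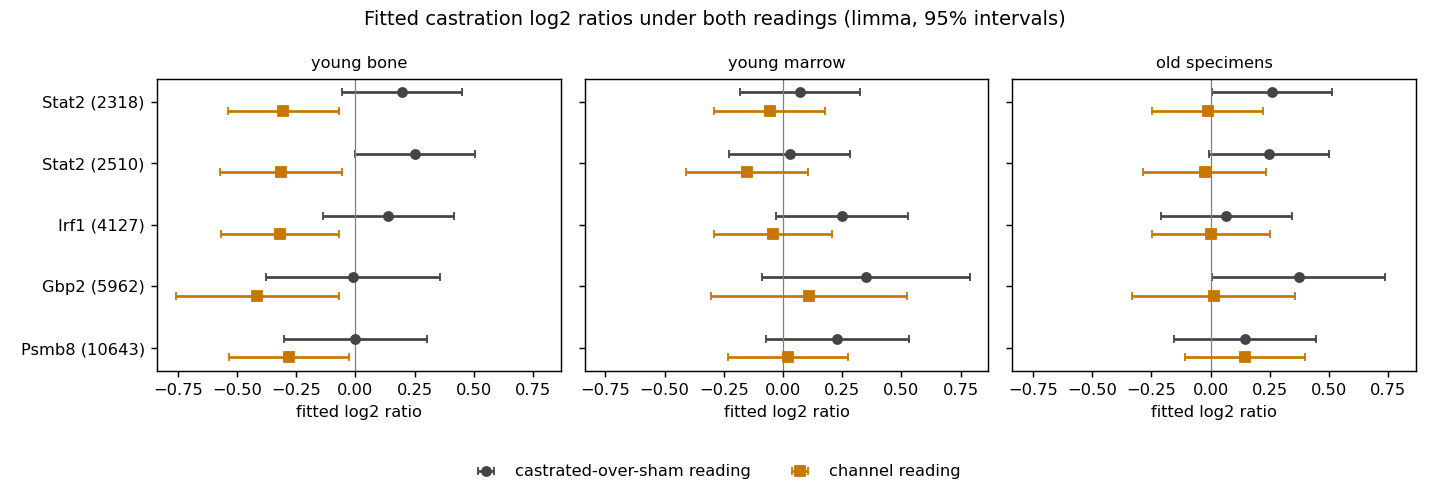
Fitted log2 ratio of each member feature in the 3 groups, with bars of the 95% confidence interval before any adjustment, under the castrated-over-sham reading and the channel reading. In young bone the channel values lie between -0.42 and -0.28 and the castrated-over-sham values between -0.01 and 0.25.

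Young bone was then set against the mean of young marrow and old specimens. Under the castrated-over-sham reading the difference was 0.03 and 0.11 for Stat2, -0.02 for Irf1, -0.37 for Gbp2 and -0.19 for Psmb8, with adjusted p-values near 1.0. Gbp2 had the largest difference on either reading: -0.48 (SE 0.19) under the channel reading, beside -0.37 (SE 0.14) for Psmb8, -0.30 for Irf1, and -0.27 and -0.23 for Stat2. Those 2 targets had unadjusted p-values of 0.033 and 0.023 there, and adjusted p-values of 0.998. On the unswapped arrays alone the difference was -0.68 (SE 0.24) for Gbp2 and -0.42 for Psmb8, with adjusted p-values of 0.999. Under the castrated-over-sham reading the difference of Gbp2 was -0.66 without young bone replicate 3, -0.11 without young bone replicate 1 and -0.21 without young marrow replicate 3, and that of Psmb8 was -0.41 without young bone replicate 3, -0.06 without young bone replicate 2 and -0.10 without old replicate 3. In each of these 3 fits 0 of all features passed, while 389 and 329 had an unadjusted p under 0.05 under the castrated-over-sham and channel readings.

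Against young marrow alone, under the castrated-over-sham reading, young bone differed by 0.12 and 0.22 for Stat2, -0.11 for Irf1, -0.36 for Gbp2 and -0.23 for Psmb8. Against old specimens it differed by -0.07, 0.00, 0.07, -0.38 and -0.15 for the same features in that order. On the channel reading young bone differed from young marrow by values from -0.53 (Gbp2) to -0.16 (Stat2 feature 2510), and differed from old specimens by values from -0.43 (Gbp2 and Psmb8) to -0.29 (Stat2), with adjusted p-values of 0.997 to 0.998. Both comparisons share the young bone arrays. No member passed in either under either reading, where 0 and 0.0113% of all features did with the deposited signs and 0 in both on the channel reading (148 and 363 had an unadjusted limma p under 0.05), and 0 of the 5 features lay below every array of the other groups on the channel reading, as 0.979% of all features did. Averaged over the 3 groups, the ratios with the deposited signs were 0.18 for both Stat2 features, 0.15 for Irf1, 0.24 for Gbp2 and 0.13 for Psmb8, with adjusted p-values of 0.23 to 0.53, beside 4.04% of all features past the threshold. Without young bone replicate 3 those averages were 0.07 and 0.08, 0.04, 0.12 and 0.01 for the same features. The common dye layout term was -0.12 and -0.16 for Stat2, -0.12 for Irf1, -0.11 for Gbp2 and -0.04 for Psmb8 under the same reading (adjusted p 0.74 to 0.90; 0 of all features passed and 583 had an unadjusted p under 0.05). Under the channel reading that term was 0.18 for both Stat2 features, 0.15 for Irf1, 0.25 for Gbp2 and 0.13 for Psmb8, and none passed, beside 2.6% of all features. For a feature with a value on every array, turning the swapped arrays exchanges the average and this term. The channel term thus restates the average with the deposited signs, nearly so for Gbp2, and is not a separate dye result.

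The other genes of the pathway were taken from lists by role. In young bone none of the measured genes of these pathway lists passed the threshold under either reading, so the lists are described by their values. Over all features the median fitted value in young bone was -0.01 under the castrated-over-sham reading and 0.00 under the channel reading.

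No interferon gene was tested. The 2 tested genes of the ligand list of 14 were Il18 and Il12b, cytokines that induce interferon gamma, fitted in young bone at -0.26 and 0.02 under the castrated-over-sham reading and at -0.14 and 0.06 under the channel reading. Of the 7 listed receptors and kinases, Ifngr2, a chain of the interferon gamma receptor, and the kinases Jak1 and Jak2 were tested, and all 3 were below 0 in young bone on the channel reading, with a median of -0.14. Jak2 feature 7201 resembled Stat2, with -0.23, 0.02 and 0.58 on young bone replicates 1, 2 and 3. Jak2 feature 7009 was fitted in young bone much as 7201 was. The fits were 0.16 and 0.18 under the castrated-over-sham reading, and -0.26 and -0.29 under the channel reading. Feature 10254 differed, with 0.03, -0.29 and -0.04, so that the features of this gene disagree. The lowest channel p-value among the Jak2 features belonged to feature 7564 (-0.35, unadjusted limma p 0.011). Jak1 features 1955 and 2147 had channel values of -0.22 and -0.21 (unadjusted limma p 0.034 and 0.043), and both were highest on the swapped young bone array, at 0.30 and 0.31.

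Of 18 listed STAT and IRF factors 6 were tested. Irf3, the factor activated downstream of nucleic acid sensors, had -0.12, -0.01 and 0.51 in young bone, highest on the swapped array, as Irf1 and Stat2 were. Stat4, the factor that carries interleukin-12 signals in T and NK cells, had -0.50, -0.90 and 0.13, the lowest unadjusted p of the list under both readings: -0.45 (SE 0.12, p 0.0045) on the channel reading and -0.39 (p 0.033) on the castrated-over-sham reading. The repressor Irf2 was lowest on the swapped array on feature 2229 (0.31, 0.13 and -0.18), and stayed near 0 on feature 7254 (-0.10, 0.08 and 0.04). Stat6, the factor of interleukin-4 signalling, had 0.08, -0.21 and 0.14 on feature 4848 and 0.03, -0.30 and 0.09 on feature 6893. On the channel reading 5 of the 6 genes were below 0 in young bone with a median of -0.28, and on the castrated-over-sham reading 2 of 6 with a median of 0.09.

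The immunoproteasome showed the young bone pattern of Psmb8 in all 3 of its inducible catalytic subunits. Psmb9 had -0.09, -0.43 and 0.42 on young bone replicates 1, 2 and 3, and Psmb10 had -0.18, -0.14 and 0.43. In each of the 3 subunits both unswapped arrays were below 0 and the swapped one above 0, a pattern that 16.3% of all features had. On the channel reading they were fitted at -0.34 for Psmb9 (unadjusted limma p 0.047), -0.29 for Psmb10 (0.027) and -0.28 for Psmb8 (0.033). After adjustment these p-values were 0.72, 0.70 and 0.71, and none passed. In young marrow Psmb9 had 0.02, 0.44 and 0.16, and Psmb10 had 0.21, 0.17 and 0.31. In old specimens Psmb9 had -0.32, -0.16 and 0.36, and Psmb10 had 0.15, -0.34 and 0.58, with replicate 3 highest for both, as it was for Psmb8. Of the interferon-induced activator subunits, Psme2 had -0.27, 0.06 and 0.22 in young bone.

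Across the 17 listed genes of the immunoproteasome and antigen processing 10 were tested, and 9 of these were below 0 in young bone on the channel reading (median -0.18) against 3 of 10 on the castrated-over-sham reading (median 0.02). Some of the 9 lay close to 0 on the channel reading: the Canx features were fitted there at 0.02, -0.03 and 0.01. The features of B2m, the light chain of MHC class I, differed on that reading. They were fitted in young bone at 0.06 (feature 8405), 0.08 (7593) and -0.21 (9193). With the deposited signs B2m feature 8405 was above 0 on all 9 arrays, from 0.14 to 0.40. Its average over the groups passed under the castrated-over-sham reading (0.28, SE 0.05, adjusted p 0.013). That call was lost without young marrow replicate 2 (adjusted p 0.135) or old replicate 2 (adjusted p 0.107). The other B2m features averaged 0.19 and 0.22 with adjusted p-values of 0.13 and 0.090. The chaperone Calr had -0.35, -0.19 and 0.17 in young bone, and the chaperone Canx had 0.01, -0.07 and -0.08 on feature 3711.

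The 12 tested of 14 listed constitutive proteasome subunits, which the inducible ones replace or assemble with, had a median unswapped minus swapped difference of -0.08 in young bone, beside -0.33 for the 9 immunoproteasome and antigen processing genes other than Psmb8. Psmb5, the subunit whose place Psmb8 takes, had 0.03, 0.02 and -0.08 in young bone. Psmb7, whose place Psmb10 takes, had -0.28, -0.53 and -0.11 on feature 2530 and -0.21, -0.32 and -0.27 on feature 6809, below 0 on all 3 arrays. Psma1 feature 6315 and Psma2, subunits of the outer ring, were fitted in young bone at -0.24 and -0.25 under the castrated-over-sham reading, and Psmb1 and Psma6 at -0.14 and -0.12 under the channel reading.

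Target genes with antiviral roles were mixed. Of 37 listed 9 were tested, and their young bone median was -0.07 under the castrated-over-sham reading and -0.01 under the channel reading. Ube2l6, the enzyme that conjugates the ubiquitin-like protein Isg15, came closest, with 0.20, -0.41 and 0.68 on feature 5595 (channel -0.38, unadjusted limma p 0.015) and 0.23, -0.15 and 0.59 on feature 8013. Xaf1, an interferon-induced gene that promotes cell death, ran the other way with 0.14, 0.69 and -0.43 (channel 0.43, p 0.022). Ifi35 had -0.47, -0.31 and 0.11 (channel -0.26, p 0.039). Ifitm1, a membrane protein that blocks virus entry, was below 0 on 8 of 9 arrays on feature 8244, its average passing under the castrated-over-sham reading at -0.41 (SE 0.07, adjusted p 0.012), and its second feature, 10483, passed at -0.34 (adjusted p 0.018). Without any 1 of the 3 swapped arrays neither feature passed, with adjusted p-values of 0.072 (young bone replicate 3), 0.0829 (young marrow replicate 2) and 0.105 (old replicate 2) for feature 8244. Feature 10483 also failed without young marrow replicate 1 (adjusted p 0.0625). The related Ifitm3 was fitted in young bone at -0.18 under that reading.

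Of 18 listed guanylate binding and immunity-related GTPases only Gbp2 and Ifi47 were tested. Ifi47, an interferon gamma-induced GTPase, had -0.05, -0.14 and -0.01 in young bone against 0.36, 0.46 and 0.70 in young marrow and 0.01, -0.04 and 0.28 in old specimens. Its young bone and young marrow arrays did not overlap in the deposited ratios, a separation whose share over all features was not counted. The young marrow value of Ifi47 was 0.50 (SE 0.10, adjusted p 0.059) under the castrated-over-sham reading. Its layout difference in young bone was small at -0.09, unlike that of Gbp2.

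Among the feedback inhibitors 5 of 9 were tested. Usp18, which removes Isg15 and blocks the type I interferon receptor, had -0.38, -0.21 and -0.02 in young bone. Socs2 had 0.71 and 0.82 on young bone replicate 2 on its 2 features, and values from -0.05 to -0.01 on the other young bone arrays. Pias1, an inhibitor of activated STATs, had 0.07, 0.28 and -0.30. Cish, a STAT5-induced inhibitor, passed in old specimens under the castrated-over-sham reading, with -0.61, -0.52 and -1.43 on the arrays and a fitted value of -0.81 (SE 0.14, adjusted p 0.032). The call was lost when any array other than old replicates 1 and 3 was left out, with adjusted p-values of 0.0522 (without young bone replicate 2) to 0.253 (without old replicate 2). In young bone Cish had -0.04, 0.12 and 0.24. Of the sensors and adaptors 4 of 15 were tested, and Adar, an RNA-editing enzyme with an interferon-inducible form, had -0.16, -0.22 and 0.29 in young bone. Tlr3, Tlr9 and the adaptor Myd88 were fitted there between -0.07 and 0.02 under the castrated-over-sham reading. B2m, Ifitm1 and Cish were the pathway genes that passed in any group or average under the castrated-over-sham reading, and under the channel reading none did outside its dye layout term.

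**Figure D4:**
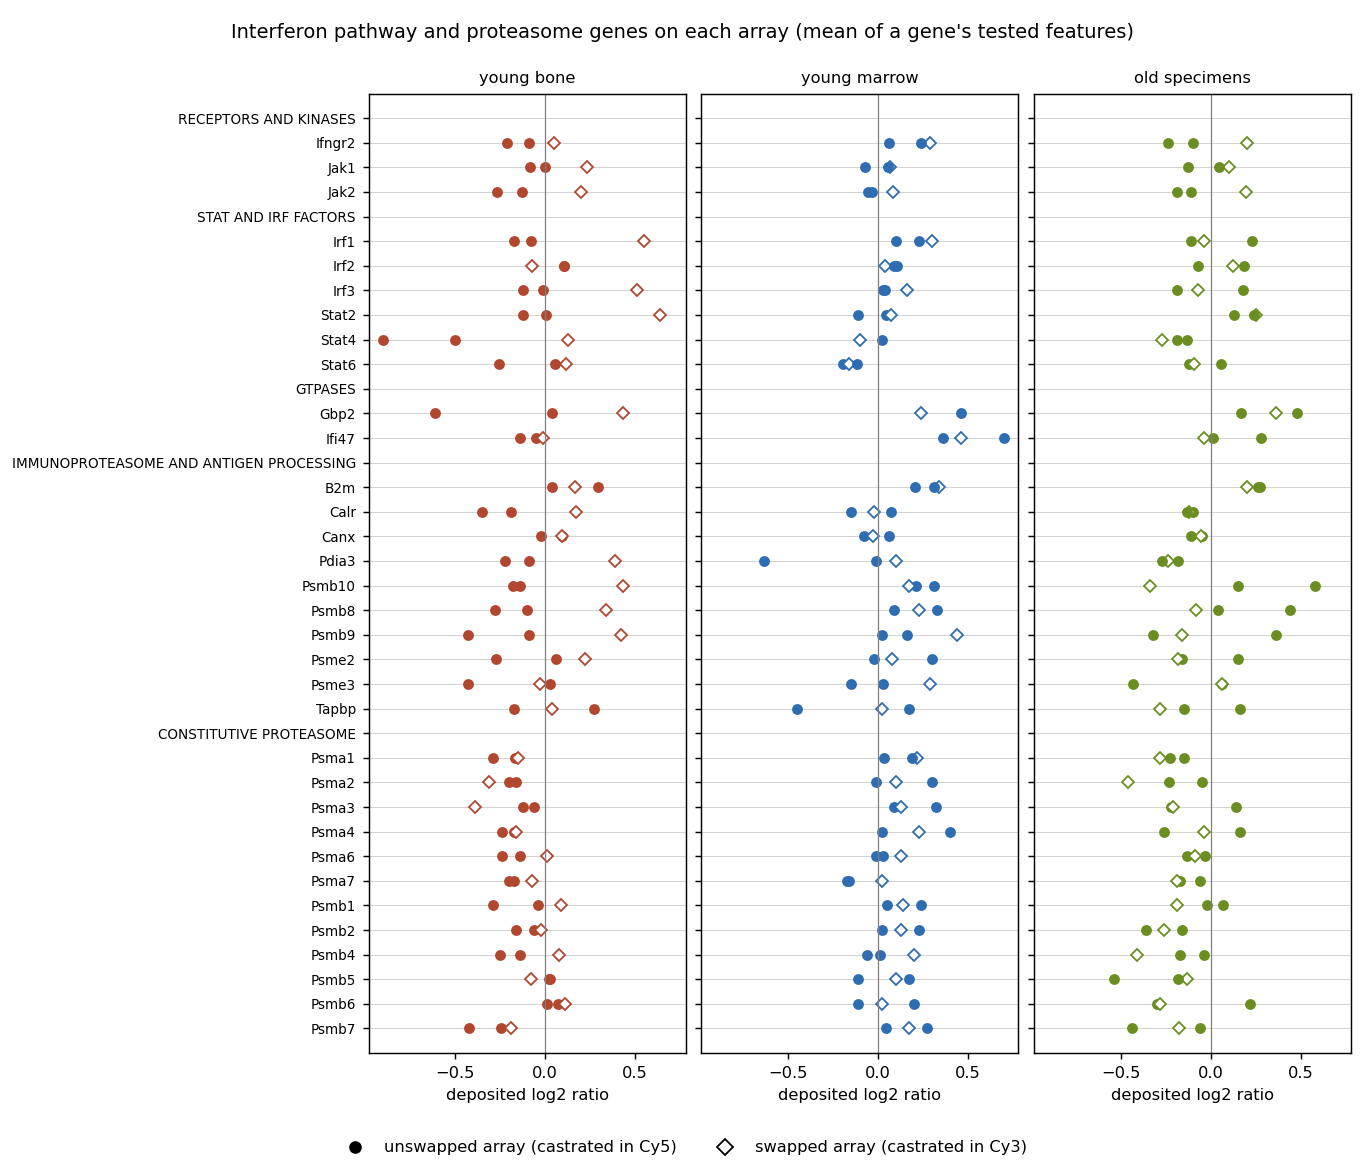
Deposited log2 ratio (horizontal axis) of pathway and proteasome genes (rows, by role) on each array of the 3 groups, as the mean of the tested features of a gene; filled circles are unswapped arrays and open diamonds swapped arrays. In young bone Irf3, Psmb9 and Psmb10 lie below 0 on both unswapped arrays and above 0 on the swapped one, as Irf1 and Psmb8 do (16.3% of all features do), while Psmb7 stays below 0 on all 3.

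RNA came from whole tissue, so fewer cells of a type and less RNA per cell cannot be told apart. Of 18 listed markers of T and NK cells 4 were tested. Among the young bone arrays their median deposited ratio was highest on replicate 3, as the member ratios were: -0.20 on replicate 1, -0.39 on replicate 2 and 0.15 on replicate 3. Over the 9 arrays this median ranged from -0.39 to 0.15 in young bone, from -0.31 to -0.14 in young marrow and from -0.28 to 0.17 in old specimens. Thy1 had -0.61, -0.48 and 0.26 in young bone, and Il2rb had -0.46, -0.58 and 0.11 on feature 11332, while Cd4 had 0.15, -0.22 and -0.03. The unswapped minus swapped difference of these 4 markers had a median of -0.46 in young bone, with 4 of 4 below 0, although that of Cd4 lay close to 0. Their part in the member ratios was not tested.

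Other tissue markers also differed between the young bone arrays. Skeletal muscle markers, 6 tested of 12 listed, had medians of -1.36, -0.20 and -0.60 on replicates 1, 2 and 3, and osteoblast and bone matrix markers, 7 tested of 15, had 0.14, 1.28 and 0.26. In both sets replicate 3 lay between the other replicates, whereas for the members it was the highest. Granulocyte markers had -0.33, -0.56 and -0.35, and markers of monocytes, macrophages and dendritic cells had -0.17, -0.38 and -0.22. B lymphocyte markers had 0.98, 0.585 and 0.85, adipocyte markers 0.55, 0.82 and 0.815, and endothelial markers 0.015, 0.18 and 0.005. Of plasmacytoid dendritic cells, the main source of type I interferon in blood and marrow, only 1 of 8 listed markers was tested (Ccr9: -0.21, -0.16 and -0.11 in young bone). Other sets were highest on replicate 3, as the members were. Erythroid markers, 4 tested of 11, had -0.07, -0.32 and 0.13 in young bone, megakaryocyte and platelet markers, 4 of 9, had 0.07, -0.03 and 0.45, and osteoclast markers, 4 of 11, had -0.19, -0.11 and 0.04. The median unswapped minus swapped difference in young bone was -0.24 (3 of 4 below 0) for the erythroid, -0.37 (3 of 4) for the megakaryocyte and -0.21 (4 of 4) for the osteoclast markers. The part of these cell types was not tested.

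Across the 9 arrays, with the deposited signs, Irf1 and Psmb8 had a Pearson correlation of 0.85, as a description over arrays that share their layout and tissue groups. Irf1 ranked 77 among 5568 features of other genes in likeness to Psmb8, and Psmb8 ranked 177 in likeness to Irf1. Without young bone replicate 3 their correlation was 0.89. Stat2 feature 2318 and Irf1 correlated at 0.58, which fell to 0.05 without that array, so that their likeness rests on it. The 2 Stat2 features correlated at 0.93, and at 0.81 without it. With the swapped arrays turned, a check added after the data were seen, Irf1 and Psmb8 correlated at 0.91, with Irf1 at rank 9 for Psmb8 and Psmb8 at rank 12 for Irf1, and Stat2 feature 2318 and Irf1 at 0.65, or 0.20 without young bone replicate 3.

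With the deposited signs, the genes most like each member came from outside the interferon lists. For Irf1 they were Mtf2, a Polycomb-associated factor, at 0.98, Idh3g, a subunit of a mitochondrial dehydrogenase, at 0.97 and Ndufb10, a subunit of respiratory complex I, at 0.97. For Psmb8 they were Mrpl24, a mitochondrial ribosomal protein, at 0.97, Akr1e1 at 0.96 and Pop4, a subunit of ribonuclease P, at 0.96. For Stat2 feature 2318 they were Ppil2 at 0.93, Uggt1, a glycoprotein folding sensor, at 0.92 and Ctnnb1, which encodes beta-catenin, at 0.92. For feature 2510 they were Ankzf1 and Arhgap45 at 0.96 and Scfd2 at 0.94. Mtf2 had 0.61 on young bone replicate 3 and -0.08 on replicate 2, much as Irf1 did. With the swapped arrays turned, Mtf2 was again first for Irf1 (0.97), Akr1e1 for Psmb8 (0.98) and Ankzf1 for Stat2 feature 2510 (0.95), while Ndufb10 fell to rank 239 for Irf1, Mrpl24 to rank 47 for Psmb8 and Uggt1 to rank 1553 for Stat2 feature 2318. Gbp2, with 8 values, was not ranked.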

How the data were processed

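Dual-channel arrays of castrated against sham-operated mice were compared in 3 groups of 3. The deposited values are log2 ratios as read here, 1 per feature and array. What the authors did for background, normalization and log base is not given in the sources used here. The arrays are centred near 0. All 9 value columns were used. Gene names came from GEO's platform annotation, updated by gene ID through RefSeq: 8050 features have 1 symbol, 672 several and 2830 none, and 7880 were matched by ID.

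Features with values on at least 2 arrays of each group and at least 1 swapped array were tested, 8885 in all. A linear model with a coefficient per group and a dye layout term (1 for unswapped, -1 for swapped arrays) was fitted in R 4.3.3 with the moderated variances of limma 3.58.1, with at most 5 residual degrees of freedom. Missing values were left out of a feature's fit, never imputed. The Benjamini-Hochberg adjustment of the p-values ran over all tested features, with a threshold of 0.05. The fit was tested on simulated data. Young bone minus the other groups is the young bone coefficient less the mean of the other coefficients. The number of arrays limits the precision.

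The members, gene lists and tests were chosen with earlier results of these data known. Named are all member features, pathway genes past the threshold in any comparison, the 3 of each list with the lowest unadjusted p in young bone under each reading, every measured Gbp, Irf, Stat and immunoproteasome gene, and the 3 genes most correlated with each member. Other features named as examples were chosen after their values were seen. The alternatives tried were the channel reading, no dye term, centring on the median, scaling to a common SD, a filter for all 9 values, unswapped arrays alone, array weights, a replicate block, and leaving out each array in turn. Alternatives run on the channel reading were added after the data were seen.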

Additional observations from a re-analysis of the deposited data

Results flagged for a closer look

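In each case below every array of a group lay on one side of 0 and every array of another group on the opposite side. The share of all features that separate in this way was not counted, so the cases are not shown to be particular to these genes. The same differences were tested as contrasts of the limma fit, and none passed. The adjusted p-values were 0.873 to 0.957 for young bone minus young marrow, 0.343 for young marrow minus old specimens, a contrast added after the data were seen, and 0.997 for young bone minus old specimens under the channel reading. With a replicate block none passed either, with adjusted p-values of 0.174 to 0.227 for young marrow minus old specimens. Under the castrated-over-sham reading, Ifi47 averaged -0.07 in young bone and 0.51 in young marrow, a difference of -0.573.

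The other cases under that reading are constitutive proteasome subunits. Young bone minus young marrow was -0.477 and -0.423 for the Psmb7 features 2530 and 6809, -0.437 and -0.26 for the Psma1 features 6315 and 8682, -0.407 for Psma4, -0.37 for Psma3 and -0.207 for Psmb2. Young marrow minus old specimens was 0.433 and 0.3 for the same Psma1 features, 0.453 for Psmb7 feature 6809 and 0.387 for Psmb2.

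Under the channel reading, Psmb8 averaged -0.24 in young bone and 0.19 in old specimens, a difference of -0.427. Psmb10, its partner in the immunoproteasome, averaged -0.25 in young bone and 0.36 in old specimens, a difference of -0.607. With the deposited signs the arrays of these 2 subunits overlap between the groups.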

How the results depend on the processing

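No member feature passed the threshold in any comparison of the castrated-over-sham or channel fit, nor in any alternative except array weights, where Irf1 passed in young marrow (1 feature; 0.21, adjusted p 0.0241). With those weights 2005 of the 8885 features tested passed in young marrow, so the call does not set Irf1 apart. Young marrow replicate 2 had the largest weight, 5.14. The adjusted p of Irf1 in young marrow ran from 0.0241 to 1.0 over the alternatives. The signs were less firm than this. The channel reading turned the sign of the Stat2 features (-0.31 and -0.32) and Irf1 (-0.32) in young bone, of the same features in young marrow (-0.055, -0.15 and -0.041), of Stat2 in old specimens (-0.012 and -0.025), of all 5 on average (-0.12 and -0.16 for Stat2, -0.12 for Irf1, -0.10 for Gbp2, -0.038 for Psmb8), and of Stat2 in young bone minus the other groups (-0.27 and -0.23). The unswapped arrays alone turned Stat2 (-0.07 and -0.045) and Irf1 (-0.125) in young bone, Stat2 feature 2510 in young marrow (-0.09), and Stat2 in young bone minus the other groups (-0.18 and -0.085). Array weights turned Irf1 (-0.067) and Psmb8 (-0.023) in old specimens and Stat2 feature 2318 in young bone minus the other groups (-0.066). Leaving out the dye term turned Stat2 feature 2510 in young marrow (-0.027), and centring on the median turned Gbp2 (0.0045) and Psmb8 (0.016) in young bone, which lie near 0. Among pathway genes that passed, the channel reading turned the average of Ifitm1 (0.11 and 0.089) and ended the calls of B2m (0.03) and Cish (-0.42), and the unswapped arrays alone ended all of these calls. Cish also failed with the arrays centred on the median (adjusted p 0.0585) or scaled to a common SD (0.111). The cause was not tested.

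Leaving out each array in turn moved the young bone value from -0.051 to 0.28 for Stat2 feature 2318, from -0.12 to 0.24 for Irf1, from -0.32 to 0.24 for Gbp2 and from -0.27 to 0.12 for Psmb8, each lowest without young bone replicate 3. The young marrow value ran from -0.02 to 0.21 and from -0.02 to 0.11 for the Stat2 features and from 0.052 to 0.65 for Gbp2, and the old specimens value from -0.075 to 0.26 for Irf1 and from -0.02 to 0.38 for Psmb8. Young bone minus the other groups ran from -0.18 to 0.12 and from -0.085 to 0.24 for Stat2, from -0.24 to 0.086 for Irf1, from -0.66 to -0.11 for Gbp2 and from -0.41 to -0.057 for Psmb8. The average ran from 0.070 to 0.23 and from 0.077 to 0.24 for Stat2, from 0.042 to 0.24 for Irf1, from 0.12 to 0.35 for Gbp2 and from 0.012 to 0.22 for Psmb8, each lowest without young bone replicate 3. On the channel reading no member changed sign in young bone or in young bone minus the other groups. That reading had 12 runs, 9 of which left out 1 array, against 17 (16 for Gbp2) on the castrated-over-sham reading. The members were chosen with their young bone values known, so the kept sign is a description and carries no weight as a test.

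The count over all features was 23 in young bone, 75 in young marrow, 65 in old specimens and 359 on average. It was 0 in all 4 under the channel reading; 1, 3, 13 and 86 on the unswapped arrays; and 130, 2005, 1594 and 1599 with array weights. It was 50 in young bone without the dye term, and 222 in young marrow and 18 in old specimens with the arrays scaled to a common SD. Leaving out 1 array gave 1 (without young bone replicate 3) to 80 (without old replicate 3) in young bone, 0 (without young marrow replicate 2) to 138 in young marrow, 10 (without old replicate 2) to 1332 in old specimens and 96 (without young marrow replicate 2) to 574 on average, each highest without old replicate 3.

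The deviations of same-numbered arrays correlated at -0.09, -0.37 and -0.08 between young bone and young marrow, at -0.05, -0.10 and 0.38 between young bone and old specimens, and at 0.60, 0.27 and 0.30 between young marrow and old specimens. The last are all over 0.1, but mice of 17 and 59 weeks are different animals, so the number cannot mark a shared mouse. Same-numbered arrays of young marrow and old specimens also share their dye layout, and other links between them were not tested. The fit without the block was kept. With a replicate block no member passed, Psmb8 in young bone changed sign (0.013), and the counts were 52 in young bone, 119 in young marrow, 69 in old specimens and 411 on average.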

Other observations

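Constitutive proteasome subunits mostly shared a sign within each group under the castrated-over-sham reading: the median fitted value of 12 genes was -0.12 in young bone with 10 below 0, 0.12 in young marrow with 11 above 0, and -0.16 in old specimens with 12 below 0, beside medians over all features of -0.01, 0.00 and -0.04. No subunit passed the threshold of the limma fit in any of these groups. Under the channel reading the medians were -0.07, 0.04 and 0.01.

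Socs1, an inhibitor of Janus kinases induced by interferon gamma, had too few values to be tested. Its feature 5927 had 0.69, 0.36 and 0.65 on the 3 young bone arrays and its feature 6119 had 0.70, 0.25 and 0.77, above 0 on swapped and unswapped arrays alike. Oas2, an antiviral enzyme, also had too few values, with -0.59, 0.01 and -0.32 in young bone and -0.34, -0.54 and -0.32 in young marrow.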
